A study of Gasterosteus aculeatus with 242 samples.

Results

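The fish described here are 57 hand-reared female threespine stickleback (Gasterosteus aculeatus), 32 dissected after an open-field test with a simulated predator and 25 taken as baseline controls. They are 57 of 242 libraries in the series and were chosen by their labels alone: rearing Day 0, sex female, and a total of at least 500000 counts. All came from 8 families, each read from the leading number of the fish code. Their fathers were caught in the wild in Putah Creek, California, and Day 0 marks offspring raised by hand without a father, whereas Day 10 marks offspring raised by the father. The offspring were 6 to 8 months old and not yet sexually mature. Open-field fish explored a pool alone for 10 minutes, were then attacked by a moving sculpin model, and gave their brains 60 minutes after the attack. A baseline fish was a full sibling that stayed in the home tank and was dissected within 30 minutes of its partner. Partners need not both be among these females. By the sibling number in the fish code there were 14 pairs of 2 females, 25 females whose same-number sibling was male and 4 with none. Whether that number marks the partner is not settled. Sex was called from a DNA marker. Baseline fish were taken from the tank rather than placed in the pool without a model, so handling, the unfamiliar pool and the attack cannot be told apart in this comparison.

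From every fish 1 brain side was sequenced as a 3′ tag library (3′ TagSeq), which reads the end of each polyadenylated transcript, so that 1 tag stands for about 1 transcript whatever its length. In many vertebrates a new or threatening setting is followed within an hour by a burst of transcription in the neurons that were active, led by immediate early genes, which need no new protein for their induction, and followed by later genes that these control. In this species the father alone guards the eggs and the young fry, and the study asks what that care does to behaviour and to brain expression. The comparison of open-field with baseline females asks which transcripts changed in the brain of a fish that never had a father. The counts carry Ensembl gene identifiers, and 0 of the 22456 matched the RefSeq table used here, so no gene has a name, a role or a position below, and gene lists and cell type markers were not analysed here. Identifiers are given for the 2 genes of smallest p that were higher and the 2 that were lower. The others called are numbered 3 to 14 by their p.

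Depth and library make-up were compared between the groups first. Total counts ran from 706544 to 1348204 (median 1044753) in baseline fish and from 719461 to 1311376 (median 1001693) in open-field fish, and their means did not differ beyond the spread within families (permutation test within families, two-sided, 100000 resamples, p = 0.512). The number of genes with a count (p = 0.311) and the share of counts in the 10 most abundant genes (p = 0.94) did not differ beyond it either. No fish stood apart: the median correlation of a fish with the other fish ran from 0.9397 to 0.9525. The gene with the largest excess in males reached at most 12.3 CPM (counts scaled to a common library size) in these females and was at least 93.4 CPM in every hand-reared male. The groups were spread over both brain sides (14 left and 11 right at baseline, 16 and 16 after the open field) and over 3 plates, but unevenly over families, from 1 baseline and 3 open-field fish in family 40 to 6 and 6 in family 32.

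After the open-field test, 14 of 7040 tested genes were higher than in baseline sisters and none was called lower. That is 0.199% of tested genes rising and 0% falling (edgeR's quasi-likelihood test with family, side and plate in the model, Benjamini-Hochberg adjusted p under 0.05). Among the 14, the fold change ran from 1.249 to 2.4975, with a median of 1.823, and 4 genes more than doubled. Another 5 lay between 1.5-fold and 2-fold, and 4 were under 1.3-fold. Most tested genes moved little. Of all 7040, 13 were over 1.5-fold up, 9 of them called genes, and 2 were over 1.5-fold down. The 95% interval of the fold change lay within 1.5-fold of no change for 97.5% of tested genes. At an unadjusted p under 0.05 there were 417 genes, 5.92% of those tested. DESeq2 called 15 genes higher and none lower, with 377 at an unadjusted p under 0.05. The count depends most on family 22, the family with 3 baseline and 6 open-field fish: without it 7 genes were called, those of smallest p, and genes 8 to 14 had adjusted p from 0.0818 to 0.301. The tissue is a bulk sample of 1 brain side, so a higher level may come from more RNA per cell or from more cells of a type, and these cannot be told apart.

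**Figure D1:**
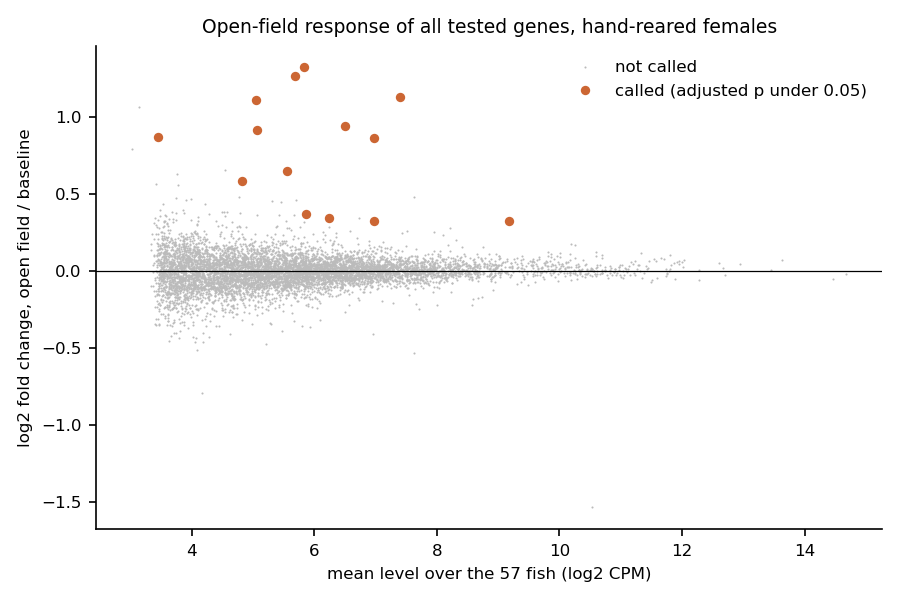
Each point is 1 of 7040 tested genes in hand-reared females. The horizontal axis is its mean level (log2 CPM) and the vertical axis its log2 fold change, open field over baseline. The 14 called genes (orange) all lie above 0, from 0.32 to 1.32, and are spread over the range of levels.

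The gene with the smallest p was ENSGACG00000016157. In the 25 baseline fish its lowest, median and highest levels were 55.04, 98.6 and 177.97 CPM, and in the 32 open-field fish they were 112.9, 218.6 and 336.4 CPM. Every open-field fish was above the baseline median, and 21 of 32 were above the highest baseline fish, so the groups overlapped between 112.9 and 177.97 CPM. The means were 98.2 ± 32.6 CPM (SD, n = 25) and 213.2 ± 55.6 CPM (SD, n = 32). The fitted log2 fold change was 1.13 (SE 0.11, adjusted p = 6.54e-10 by edgeR), a 2.1826-fold rise. It was higher in 8 of 8 families, with family means differing by 0.68 (family 11) to 1.67 (family 39) on the log2 CPM scale. Fitted within each plate alone, its log2 fold change was 1.38 (SE 0.23), 1.18 (SE 0.17) and 0.80 (SE 0.18, adjusted p = 0.939 by edgeR), and the call was lost on plate 3.

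ENSGACG00000010476 had the largest fold change of the 14. Its lowest, median and highest levels were 11.4, 26.3 and 78.5 CPM at baseline and 40.4, 66.6 and 135.8 CPM after the open field. Open-field fish again all lay above the baseline median, and 9 of 32 exceeded the highest baseline fish, a female of family 04 (04C3). The next baseline fish were 32C1 at 66.25 CPM and 04C4 at 64.26 CPM. The means were 29.5 ± 16.6 CPM (SD, n = 25) and 72.4 ± 25.0 CPM (SD, n = 32). On the log2 scale the change was 1.32 (SE 0.15, adjusted p = 1.46e-08 by edgeR), or 2.4975-fold. All 8 families were higher, from 0.74 in family 04 to 1.73 in family 25. Within plates 1, 2 and 3 alone the change was 1.61 (SE 0.29), 1.41 (SE 0.27) and 1.43 (SE 0.25), and it was called on plate 1 alone (adjusted p = 0.0437 by edgeR, against 0.0767 and 0.112).

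**Figure D2:**
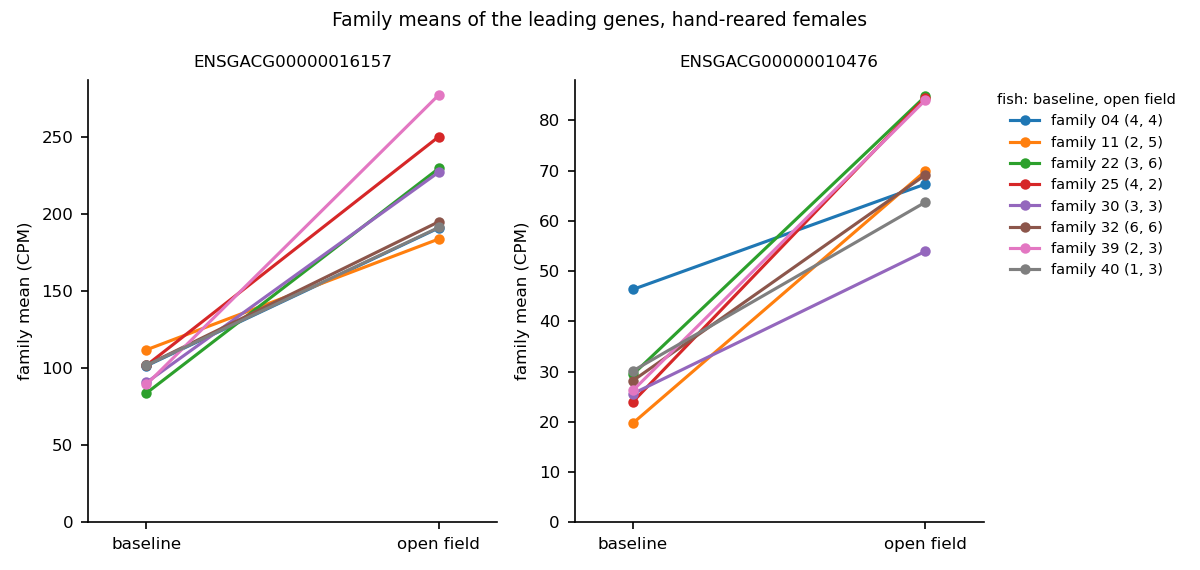
Family mean level (CPM, vertical axis) of the 2 leading genes at baseline and after the open field, 1 line per family, with the number of fish in each group in the key. Every line rises. For ENSGACG00000010476 family 04 starts highest, at 46.4 CPM, and rises least on the log2 scale.

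Called genes 3, 4 and 5 had rises just under 2-fold with small errors. Gene 3 ran from 8.10 to 33.8 CPM (median 19.5) at baseline and from 18.04 to 59.8 CPM (median 39.0) after the open field, and its log2 fold change was 0.91 (SE 0.12, adjusted p = 9.39e-07). Gene 4 ran from 18.4 to 135.2 CPM (median 51.4) and from 61.1 to 182.3 CPM (median 104.8), with a change of 0.94 (SE 0.13, adjusted p = 1.62e-06). Gene 5 ran from 33.3 to 158.7 CPM (median 73.7) and from 88.97 to 209.5 CPM (median 147.999), with a change of 0.86 (SE 0.12, adjusted p = 1.95e-06). Gene 3 separated the groups as far as the leading gene did, with 21 of 32 open-field fish above every baseline fish. In gene 4, 6 of 32 did so, and the highest baseline fish was again 04C3. In all 3 genes the open-field mean was higher in 8 of 8 families.

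Called genes 6 and 7 more than doubled and had the largest spread of log2 CPM among baseline fish. Gene 6 ran from 3.26 to 84.6 CPM (median 27.1) at baseline and from 16.2 to 169.1 CPM (median 57.7) after the open field, and its log2 fold change was 1.26 (SE 0.19, adjusted p = 2.56e-05). Gene 7 ran from 5.83 to 39.7 CPM (median 18.4) and from 11.2 to 71.3 CPM (median 38.3), with a change of 1.11 (SE 0.17, adjusted p = 2.75e-05). Both were higher in 8 of 8 families, yet their groups overlapped, with 7 and 16 of 32 open-field fish above the highest baseline fish. The standard deviation of log2 CPM among baseline fish was 0.97 for gene 6 and 0.65 for gene 7, against 0.46 for the leading gene.

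Called gene 8 was the least abundant of the set, with 2 to 23 counts per fish and a median of 8, and it rose from a median of 5.60 CPM (1.93 to 11.99) to 10.5 CPM (3.84 to 25.6). Its log2 fold change was 0.87 (SE 0.17, adjusted p = 0.00309). Its baseline mean of 5.863 CPM had 0.0% of tested genes below it, and it passed the count filter mainly through open-field fish. With no filter it was called (adjusted p = 0.00384 by edgeR). It did not pass the filter at a minimum count of 30, in left sides alone, on plate 1 alone or without family 11. Called gene 9 was the most abundant, with a baseline median of 488.8 CPM (304.0 to 656.4) and an open-field median of 624.2 CPM (437.9 to 866.6). Its change was the smallest of the 14, at 0.32 on the log2 scale (SE 0.07, adjusted p = 0.00675), with 13 of 32 open-field fish above every baseline fish and the rest inside the baseline range. Gene 9 had 293 to 1066 counts per fish.

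The remaining 5 genes passed with adjusted p from 0.0118 to 0.045. Gene 10 rose by 0.58 on the log2 scale (SE 0.12, adjusted p = 0.0118), from a median of 19.9 CPM (7.37 to 40.1) to 30.8 CPM (14 to 49.4). Gene 11 rose by 0.33 (SE 0.07, adjusted p = 0.0118), from 107.97 CPM (63.7 to 153.7) to 129.6 CPM (88.1 to 175.1). Gene 12 rose by 0.37 (SE 0.08, adjusted p = 0.0146), from 48.8 CPM (31.5 to 62.7) to 60.7 CPM (41.1 to 82.7). In these 3 genes most open-field fish lay inside the baseline range, and 5, 5 and 14 of 32 lay above it. Gene 10 was not called without family 22 or 39 (adjusted p up to 0.159), gene 11 without family 22, 25, 30 or 32 (up to 0.157), and gene 12 without family 04, 22 or 32 (up to 0.0822). Gene 14 rose by 0.34 (SE 0.08, adjusted p = 0.045), from 61.9 CPM (39.4 to 93.1) to 73.1 CPM (42.2 to 144.4), in 6 of 8 families, the fewest of any called gene. Its call was the least stable: it was lost without any 1 of families 04, 11, 22, 25, 30, 32 and 40 (adjusted p up to 0.367), with no plate term (0.38), with all fish in 1 fit (0.127), with library totals (0.0671) and with no family block (0.0598). The first gene not called had an adjusted p of 0.0903 with a log2 fold change of 0.36 (SE 0.09), close to the values of genes 12 and 14.

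Called gene 13 differed from the rest in 1 family. Its baseline levels were 14.9 to 66.3 CPM (median 30.6) and its open-field levels 0 to 103.8 CPM (median 51.9), and its log2 fold change was 0.65 (SE 0.14, adjusted p = 0.0149). It was not called without any 1 of families 11, 22, 25, 30, 32 and 39 (adjusted p up to 0.165) or with no family block (0.0598). Without family 40 its change was 0.72 (SE 0.12, adjusted p = 3.6e-04). The open-field fish at 0 was 40E1, whose family was the only one of the 8 with a lower open-field mean. Over the whole series, 4 of the 15 fish of family 40 had at most 2 counts of this gene, and the other 11 had at least 21. In fish of the other families of the series the lowest count was 5. The 4 fish were the baseline males 40C1, 40C3 and 40C7 and the open-field female 40E1.

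**Figure D3:**
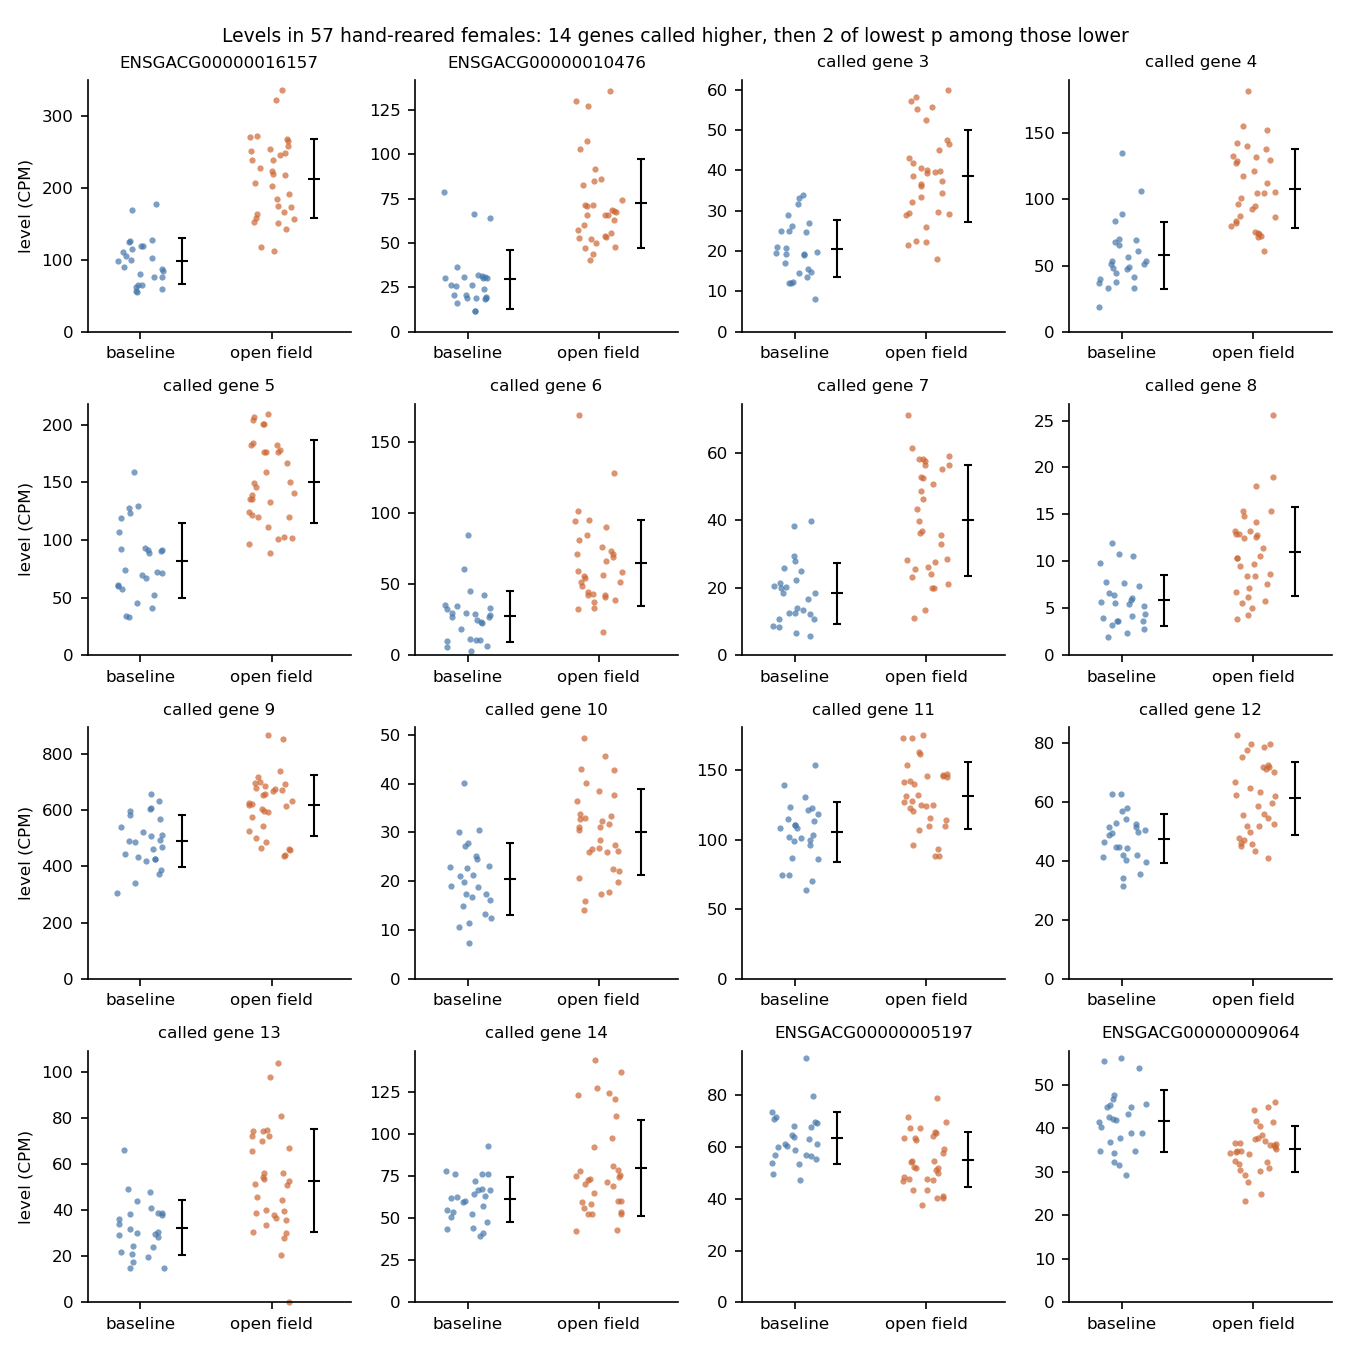
Level (CPM, linear axis from 0) of the 14 called genes and of the 2 genes of smallest p among those with lower values, 1 point per fish for 25 baseline (blue) and 32 open-field (orange) females. Black marks are the mean and SD. The groups overlap in every panel. In ENSGACG00000016157 and called gene 3, 21 of 32 open-field fish lie above every baseline fish, and the point at 0 for called gene 13 is fish 40E1.

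Neither gene with the smallest p among those with lower values was called. ENSGACG00000005197 had lowest, median and highest levels of 47.3, 61.3 and 94.3 CPM at baseline and 37.7, 53.2 and 79.1 CPM after the open field. Its log2 fold change was -0.24 (SE 0.06, adjusted p = 0.18), with lower values in 7 of 8 families. Without family 11, the family with the opposite sign, it was called (-0.30, adjusted p = 0.0169). ENSGACG00000009064 had 29.3, 41.8 and 56.1 CPM at baseline and 23.2, 35.4 and 45.9 CPM after the open field. Its change was -0.24 (SE 0.07, adjusted p = 0.209), with lower values in 8 of 8 families. The groups overlapped in both genes, with 8 and 3 of 32 open-field fish below the lowest baseline fish.

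The levels of the called genes were spread over the range of the tested genes. Their median baseline level was 39.9 CPM, against 40.9 CPM over all tested genes. The median SD of log2 CPM among baseline fish was 0.49 for the called genes and 0.31 over all tested genes. The SD of log2 CPM was larger after the open field than at baseline in 4 of 14 genes, and the share over all tested genes was not computed. The called genes also varied together from fish to fish. After family, side, plate and exposure were removed, the correlation between 2 called genes across the 57 fish was positive in 87 of 91 pairs, with a median of 0.322 and a range of -0.151 to 0.759. Over all pairs of tested genes the median was 0.003, and 50.8% were positive, against 95.6% of the called pairs. Pairs of genes with a level and spread like those of the called genes were not compared. By the same measure the genes most like ENSGACG00000016157 were called gene 4 (r = 0.68), called gene 9 (r = 0.629) and a gene that was not called (r = 0.587). Among the 100 genes nearest to ENSGACG00000016157, out of 7040 tested, 7 were called genes.

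Within each group the levels of the 2 leading genes rose together from fish to fish. Among the 32 open-field fish Pearson's r of log2 CPM was 0.49 (permutation p = 0.00468, adjusted over 4 relations 0.00624) and Spearman's rho 0.437 (permutation p = 0.0137). Among the 25 baseline fish r was 0.59 (permutation p = 0.00148, adjusted 0.0035) and rho 0.603 (permutation p = 0.00175). These permutations shuffled values over all fish of a group and not within families, so they take siblings as independent. Leaving out the 2 fish farthest from the median gave r = 0.402 and 0.556. With family, plate and side removed, r was 0.423 in open-field and 0.733 in baseline fish.

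Averaged over the 14 genes, each fish can be placed by its mean log2 CPM above the baseline mean. Since the genes were chosen for this contrast, the score is a description and carries no test. Open-field fish ran from 0.34 (11E8) through a median of 0.75 to 1.296 (22E7), and baseline fish from -0.50 (32C8) through 0.0085 to 0.58 (04C3). No open-field fish was below 0, and 24 of 32 were above the highest baseline fish. The extremes recurred: 04C3 was the highest baseline fish in 6 of the 14 genes, 32C8 the lowest baseline fish in 5, and 11E8 the lowest open-field fish in 4.

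With the filter on low counts, no gene's response was called different by edgeR between the left and right sides of the brain, or between families. Without the filter, over the 19689 genes with any count in these fish, edgeR called 2 genes for side and 260 for family. The test of exposure by side called 0 of 7040 genes (0%), with 259 at an unadjusted p under 0.05 by edgeR and 1 called by DESeq2. The test of exposure by family called 0 of 7040 (0%), with 3.37% at an unadjusted p under 0.05 and none called by DESeq2. Among the 14 genes the response was larger on the right in 11. Over all tested genes the right minus left difference was above 0 in 50.7%, and the 14 genes varied together, so they are not 14 separate observations. In 2 of them the unadjusted p was under 0.05: gene 12, with a right minus left difference of 0.53 on the log2 scale (SE 0.14, unadjusted p = 5.03e-04, adjusted p = 1), and gene 3, with 0.55 (SE 0.23, unadjusted p = 0.0218, adjusted p = 1). Fitted within sides, gene 12 changed by 0.62 on the right (SE 0.11, adjusted p = 0.00877 by edgeR), while its left value was 0.06 (SE 0.08, adjusted p = 0.998). Each fish gave only 1 side, so sides are compared between fish. The interval of the side difference lay within 1.5-fold for 69.5% of genes, against 97.5% for the response itself.

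Hand-reared males, brothers of these females, were tested in the same way. They were compared as 27 open-field with 39 baseline fish, none of which enters the female fit. Of 7156 genes tested in males, 12 rose (0.168%), and 10 of them were among the 14, which is 83.3% of the male list and 71.4% of the female list. Of the 14, 13 were tested in males. All 13 were higher there, and 12 had an unadjusted p under 0.05, against 2.25% of all genes tested in males. The baseline males include 40C1, 40C3 and 40C7, which had at most 2 counts of gene 13. The male response of gene 13 without them was not computed. ENSGACG00000016157 rose by 1.04 (SE 0.12) and ENSGACG00000010476 by 1.38 (SE 0.13) on the log2 scale in males. The lowest, median and highest levels of ENSGACG00000010476 were 6.04, 28.1 and 57.5 CPM in baseline males and 34.8, 67.7 and 126.9 CPM in open-field males, ranges that overlapped as in females. In gene 6 the male value was 0.58 (SE 0.19, adjusted p = 0.729) against 1.26 in females. The test of exposure by sex, however, called 0 of 7747 genes (0%). DESeq2 called none either, and edgeR had 332 genes with unadjusted p below 0.05. For gene 6 the test gave a male minus female difference of -0.67 (SE 0.28, unadjusted p = 0.0197, adjusted p = 0.997).

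Father-reared females, from 8 other families, were compared as 35 open-field with 26 baseline fish. In them 23 of 7072 genes rose (0.325%) and 1 fell (0.0141%). The rising list held 13 of the 14 genes, which is 92.9% of the hand-reared list and 56.5% of the father-reared list. All 14 were higher in father-reared females with an unadjusted p under 0.05, against 2.62% of all genes tested there. Of the 23 genes, 22 were tested in hand-reared females, where all 22 were higher and 21 had an unadjusted p under 0.05. Over all genes tested in hand-reared females, 5.92% had an unadjusted p under 0.05 in either direction. The 22 include the 13 shared genes, which were called as higher in hand-reared females. For those 13 the result was fixed by that call, so only the other genes add information. ENSGACG00000010476 ran from 8.26 to 53.6 CPM (median 19.7) in baseline and from 44.9 to 135.3 CPM (median 79.6) in open-field father-reared females, so only their edges overlapped. In all, 10 genes were called in all 3 groups, and gene 14 was the only one called in hand-reared females alone.

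**Figure D4:**
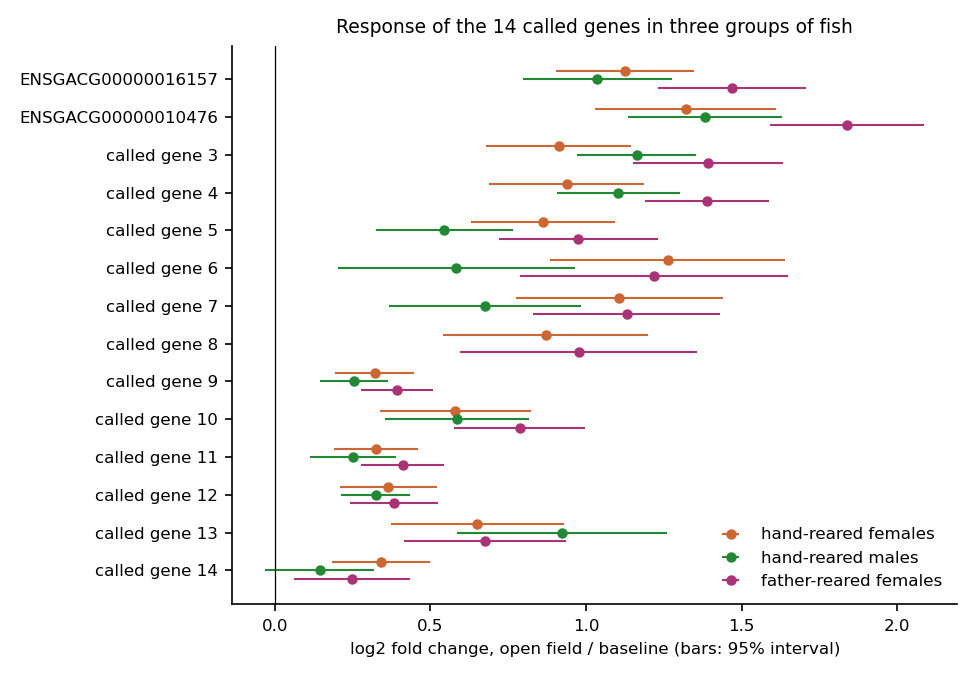
Log2 fold change, open field over baseline (horizontal axis), of the 14 called genes in hand-reared females (orange), hand-reared males (green) and father-reared females (purple), with 95% intervals. Called gene 8 was not tested in males. The first 4 genes lie farthest right in father-reared females, and gene 6 lies lower in males.

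The size of the response was next compared between rearing groups. The median log2 fold change of the 14 genes was 0.87 in hand-reared females, 0.59 in hand-reared males (13 genes) and 0.98 in father-reared females. The 14 genes were chosen in the hand-reared females, so that choice may raise their median of 0.87. The medians were not compared by a test. The log2 fold change was larger in father-reared than in hand-reared females in 12 of 14. The 14 genes varied together, so they are not 14 separate observations. Over all tested genes the father minus hand difference was above 0 in 52.6%. The largest such differences were in ENSGACG00000010476 (father minus hand 0.53, SE 0.20, unadjusted p = 0.00923), gene 3 (0.48, SE 0.18, p = 0.00784) and gene 4 (0.45, SE 0.17, p = 0.00822). None passed in the test over all genes: exposure by rearing called 0 of 7723 (0%). Unadjusted, edgeR had 281 genes below 0.05, DESeq2 called none, and the adjusted p of these 3 was 0.999. That test treats the fish as the unit, and rearing was given to whole families.

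With the family as the unit, the mean response of ENSGACG00000010476 was 1.32 ± 0.36 (SD, n = 8 hand-reared families) and 1.91 ± 0.34 (SD, n = 8 father-reared families) on the log2 CPM scale. The difference was -0.59 (SE 0.17; exact permutation test over 12870 assignments of families, two-sided, p = 0.00528, adjusted over 4 genes 0.0211). ENSGACG00000016157 responded by 1.15 ± 0.34 and 1.57 ± 0.39, a difference of -0.42 (SE 0.18; exact p = 0.0381, adjusted 0.0508). As a difference of CPM the gap of ENSGACG00000016157 was -23.3 CPM (exact p = 0.327). Which families share a parent was not given in the sources used here, and the test takes the 16 families as independent. Both genes were chosen by their rise in these hand-reared females, so the differences are not independent of that choice.

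The levels behind these responses were compared in the same way, at baseline and after the open field. ENSGACG00000016157 had a family mean of 6.58 ± 0.14 log2 CPM at baseline in hand-reared and 6.16 ± 0.28 in father-reared females (SD, n = 8 and 8 families). Hand-reared families were thus 1.3384 times higher at rest (difference 0.42, SE 0.11; exact p = 4.66e-04, adjusted over 28 tests 0.0131). After the open field the family means were 7.73 ± 0.22 and 7.73 ± 0.33, and their difference was 0.01 (SE 0.14; exact p = 0.968). Gene 3 had 4.48 ± 0.24 and 3.99 ± 0.29 at baseline (difference 0.48, SE 0.13; exact p = 0.00295, adjusted 0.0413) and -0.03 (SE 0.10; exact p = 0.768) after the open field. Gene 4 was higher by 0.36 at baseline (SE 0.14; exact p = 0.0221, adjusted 0.206), which did not pass after adjustment. ENSGACG00000010476 was higher by 0.38 at baseline (SE 0.18; exact p = 0.0524, adjusted 0.244) and lower by 0.21 after the open field (difference -0.21, SE 0.09; exact p = 0.0426, adjusted 0.244).

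The 28 tests are the 14 genes at baseline and after the open field, and they were chosen after values of the first genes had been seen. The genes themselves were chosen by their contrast in these hand-reared females, so the level differences are not independent of that choice. At baseline 11 of 14 genes were higher in hand-reared families, 3 with an exact p under 0.05 and 2 after adjustment. After the open field 5 of 14 were higher in hand-reared families, and none passed after adjustment. The share of all tested genes higher in hand-reared families was not computed for either state, so neither count can be read as particular to these genes. The 14 genes varied together, so neither count rests on 14 separate observations. With plate and side effects removed, the baseline difference of ENSGACG00000016157 was 0.42 (exact p = 0.0014) and that of gene 3 was 0.49 (exact p = 0.00404). The open-field differences of ENSGACG00000010476 and gene 10 were then -0.24 (exact p = 0.0207) and -0.22 (exact p = 0.0396). These 4 p-values are not adjusted. Whether the baseline and open-field differences themselves differ is the question of the response tests above. By family only the 4 genes named by identifier were tested, so gene 3 was not. Of the 2 leading genes ENSGACG00000010476 passed by family, and no gene passed in the test over all genes.

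**Figure D5:**
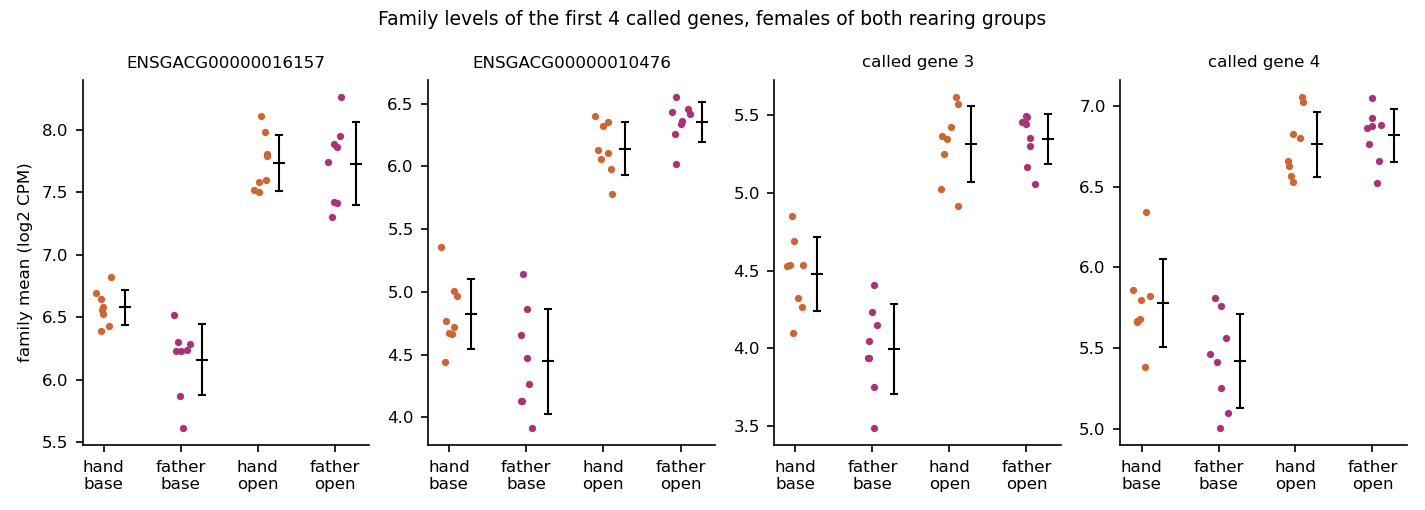
Family mean level (log2 CPM, vertical axis) of the first 4 called genes in females, 8 hand-reared (orange) and 8 father-reared families (purple), at baseline and after the open field. Black marks are the mean and SD over families. At baseline hand-reared families lie higher in ENSGACG00000016157 and gene 3, and after the open field the rearing groups lie on each other in both.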

How the data were processed

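Left or right brain sides of 242 fish were sequenced as 3′ TagSeq libraries over 6 lanes, per the labels' protocols. The authors deposited 1 table of read counts per gene and lane, not normalized. FastQC 0.11.8, STAR 2.2.3a and HTSeq 0.9.1 are named in the submitters' processing notes. The genome build and the strand setting were not given in the sources used here, so overlapping or antisense genes may share counts.

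The 6 lane counts of a library were summed. Lanes of a library differed little, with a largest chi-square per degree of freedom of 1.0997, slightly above the value for sampling noise alone. A library with under 500000 counts, a hand-reared male with 2055, was left out. Every column belonged to a sample, and 0 rows named no gene. Genes were kept by edgeR's filterByExpr with a minimum count of 10. The main test was edgeR 4.0.16 (R 4.3.3), quasi-likelihood, TMM scaling, with family, side and plate as terms, on the 57 fish alone, and the Benjamini-Hochberg adjustment ran over all tested genes. SEs were taken from the log2 fold change and its F. DESeq2 1.42.0 and limma-voom (limma 3.58.1) were alternatives. CPM values use TMM over all fish kept, and log2 CPM a prior count of 2. Exact and permutation tests were two-sided. The scripts were tested on simulated data.

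Family and plate were read from fish codes and library names. Genes were named by a rule: without symbols, the 2 rising and 2 falling genes of smallest p by identifier, the others by rank. The gene lists and cell type markers drawn up for this work need symbols and were not used, so the tissue label was not checked against markers. The comparisons, members and lists were chosen with earlier results of these data known. Fish of a family are siblings, and p-values of the fits measure the spread between the fish tested. Those of the exact tests of rearing measure the spread between families.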

Additional observations from a re-analysis of the deposited data

Results flagged for a closer look

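Family values were examined for a family far from the other 7 by Dixon's criterion in 17 sets, of which chance gives about 0.85, and 3 were marked. The sets were the family responses (mean log2 CPM of open-field minus baseline fish) of the called genes and of the 2 named lower genes. The last set was the median library total of each family. Called gene 6 in family 40 had a response of 3.7386, against 2.0719 in the next family, from 1 baseline and 3 open-field fish. Called gene 13 in family 40 had a response of -1.2363, against 0.1636 in the next family, with the open-field fish 40E1 at 0 counts. ENSGACG00000005197 in family 11 had a response of 0.2695, against -0.1865 in the next family, from 2 baseline and 5 open-field fish.

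Of the 4 genes named by identifier, 3 responded differently in hand-reared and father-reared families before adjustment (exact permutation tests over 12870 assignments, two-sided). The hand-reared minus father-reared difference was -0.592 for ENSGACG00000010476 (p = 0.00528, adjusted over 4 genes 0.0211) and -0.415 for ENSGACG00000016157 (p = 0.0381, adjusted 0.0508). For ENSGACG00000009064 it was -0.1916 (exact p = 0.0191, adjusted 0.0382), between responses of -0.23 ± 0.08 (SD, n = 8) and -0.04 ± 0.19 (SD, n = 8). ENSGACG00000009064 was picked for its low values in these same hand-reared fish, a choice that by itself favours a larger fall there. Its difference is therefore not independent of that choice, and its p cannot be read as a test. ENSGACG00000010476 and ENSGACG00000016157 were picked for their rise in these fish, so their differences are not independent of the choice either. Unlike the fall of ENSGACG00000009064, their rise was the smaller one in hand-reared families.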

How the results depend on the processing

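No named or numbered gene changed direction under any alternative run. The 14 rising genes became 12 to 18 with other scalings, filters, tools or terms (DESeq2 15, limma-voom 14, no filter 18, no family block 12), 10 in right sides alone, 2 in left sides alone, and 5, 1 and 0 on plates 1, 2 and 3 alone, with fewer fish in each. Leaving out each family in turn gave 7 to 16 rising genes. Falling genes were 0, except 1 without the filter, 1 in left sides alone and 0 to 1 when families were left out. Sibling numbers were checked as pairs: over 14 pairs the correlation of deviations from the exposure group mean was 0.074 to 0.327, and 11 of 14 were over 0.1. Those deviations still held what all fish of a family share. With family, plate, side and exposure removed, 1 of 14 was over 0.1 and the median was -0.115. Removing family means by itself pushes correlations between siblings below 0. Siblings of other numbers were not compared, so these values cannot decide the pairing. No label says that the number marks a pair, so pairs were not used in the main comparison, and the pairing is not settled. A fit of these 14 baseline and 14 open-field fish with them as replicate block called 9 rising and 0 falling genes, genes 9, 10, 12 and 14 were not called (adjusted p 0.112, 0.0832, 0.209 and 0.412), and gene 8 did not pass its count filter. The side test called 1 gene of 7040 by DESeq2. Without the filter, when genes with few counts enter, the side test called 2 and the family test 260 of 19689 genes. The cause of these moves was not tested. The effect of depth was not tested.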
